A study of Homo sapiens with 2 samples.

Results

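Kinesins are microtubule motor proteins that use ATP to move along or to shorten microtubules. Some build and divide the mitotic spindle, others carry vesicles, organelles and mitochondria through the cytoplasm, and a further set works in cilia and signalling. NRF-1 is a transcription factor of CpG-rich promoters, known for its targets among nuclear genes of mitochondrial proteins, and it binds as a dimer to a GC-rich palindrome. The kinesin genes were taken from the GENCODE annotation as every protein-coding gene whose symbol starts with KIF followed by a digit or by C, which gave 42 of 19794 coding genes. Of these, 15 were grouped as mitotic, 17 as transport and 10 as other kinesins, by their known roles.

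NRF-1 ChIP-seq was made by ChIPmentation in U251 cells, a human glioblastoma line, after transfection of siControl, a control siRNA, or of siAATF, an siRNA against the transcriptional cofactor AATF. Each sample was labelled as U251, although the series text named U138. The siControl library gave 18014 peaks and the siAATF library 18454 peaks on hg19, with 1 list for each condition, so differences between conditions had no replicate error and were not tested. No control library was named for the peak calling and the read depth was unknown. A promoter was defined as 1 kb on either side of any coding transcript start. The strength of a peak was given by its fold enrichment over the local background of its own library, by its −log10 q, and by its percentile rank among the peaks of that library (0 weakest, 100 strongest). The depletion of AATF itself cannot be read from peak lists.

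A promoter peak was present for 34 of 42 kinesin genes in siControl (81.0%, exact 95% interval 65.9 to 91.4), beside 61.1% of all coding genes. In siAATF it was present for 35 of 42 (83.3%, 68.6 to 93.0), beside 60.7%. The 34 genes of siControl were all among the 35 of siAATF. With a −log10 q of at least 5, 30 kinesin genes had a promoter peak in each list (71.4%), beside 51.5% of all coding genes in each list. These intervals cover counting error only, and genes are not replicates of a condition.

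Sequences that resemble the NRF-1 site are given first. Kinesin peaks that held them had the higher median −log10 q, as did peaks at coding promoters in general. The NRF-1 core was taken as the 5-base arm GCGCA followed directly by its reverse complement, and up to 1 mismatch in 10 bases was allowed. A core lay in a promoter peak of 8 kinesin genes, in both lists at each gene. In siControl 21.1% of kinesin promoter peaks held one, beside 21.5% of all peaks at coding promoters. Cores of 7 of these genes are shown, 5′ to 3′ on the strand of the kinesin gene, from the GRCh37 (hg19) genome, with the core in capitals and 10 bases on either side.
KIF2A: ggcgcgctctGCGCAGGCGCgcggcgcccc
KIF22: gcccacgcgcGCGCATGCGTcctgaccagg
KIF23: gccagccgtcCCGCATGCGCgtttgggcgg
KIF11: cctgcgcactGCGCATGCTCtagccgcggc
KIF3A: tggcagcattGCGCACGCGCggcctcagtc
KIF5B: ctggcccactGCGCCTGCGCagtcctcctc
KIF6: actcgctcatGCGCATGCGCagcgctctcc

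The core of KIF6, a kinesin of motile cilia, was the exact palindrome, at chr6:39693318-39693327 on the minus strand, 138 bp upstream of the canonical transcription start. A second core with 1 mismatch overlapped it 6 bases further upstream (G3T, counted from 1 at the 5′ end of the core, palindrome base first). Each other core differed from the palindrome at 1 position. The difference was T6G in KIF2A, C10T in KIF22, G1C in KIF23, G9T in KIF11, T6C in KIF3A and A5C in KIF5B. KIFC2 on chromosome 8 carried C2A in a core 9 bp upstream of its start.

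Most of these cores lay just upstream of a start. The distance to the nearest coding start of the same gene was 16 bp for KIF2A (chr5:61601969-61601978), 48 bp for KIF3A (chr5:132073374-132073383), 27 bp for KIF5B (chr10:32345376-32345385) and 148 bp for KIF22 (chr16:29801896-29801905). The KIF23 core (chr15:69706769-69706778) lay 85 bp downstream of the canonical start and within an exon of the gene. The KIF11 core (chr10:94333845-94333854) was at −19038 bp from the canonical KIF11 start. It was 13 bp from another annotated KIF11 start and 1 bp from a start of IDE, the insulin-degrading enzyme, which is read in the other direction, and it overlapped an exon of IDE.

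Mitotic kinesins had a promoter peak in 12 of 15 cases in each list (80%, 51.9 to 95.7), beside 61.1% and 60.7% of all coding genes. The 3 with the highest siControl rank were KIF18A, KIF4A and KIF2C. KIF18A, which damps chromosome movements at metaphase, had a peak at 28129442 to 28130175 on chromosome 11. Its fold enrichment was 10.7 in siControl and 9.64 in siAATF, at ranks 99.2 and 98.5, and its −log10 q was 60.5 and 53.3. The peak also covered a start of METTL15, 92 bp away and read in the other direction. KIF4A, a chromokinesin of the central spindle, had a peak at 69509490 to 69510291 on chromosome X with fold enrichments of 10.1 and 9.55 (ranks 97.9 and 98.2) and −log10 q of 66.1 and 63.7. It covered a start of PDZD11, whose nearest start was 159 bp from that of KIF4A. KIF2C, a microtubule depolymerase of the kinetochore, had a narrower peak of 487 bp in siControl (chromosome 1, 45205176 to 45205662). Its fold enrichment of 9.24 in siControl and 8.86 in siAATF ranked 93.3 and 94.6, but its −log10 q of 19.2 and 21.3 ranked 66.6 and 70.6. None of these top 3 held a core with up to 1 mismatch.

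The mitotic kinesins that held the core ranked lower by fold enrichment and high by −log10 q. KIF2A, a depolymerase of the spindle poles, had a siControl peak of 1172 bp at 61601488 to 61602659 on chromosome 5. It ranked 73.4 by fold enrichment and 96.7 by −log10 q (81.0), and in siAATF 78.4 and 97.8. KIF22, a chromokinesin that moves chromosome arms, ranked 81.2 by fold enrichment and 96.4 by −log10 q in siControl, and 74.2 and 94.4 in siAATF. KIF23, a subunit of the centralspindlin complex of cytokinesis, was the exception, with ranks of 56.3 and 45.1 in siControl and 60.5 and 54.2 in siAATF.

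KIF11, the motor that pushes the spindle poles apart, had 3 promoter peaks in each list, and its highest values did not come from its canonical start. The peak at 94351194 to 94351827 on chromosome 10 had the highest fold enrichment, 8.86 in siControl (rank 90.1) and 8.17 in siAATF (rank 88.0), and its midpoint lay at −1377 bp from the canonical start in siControl, near another annotated start. The peak shared with IDE, at 94333235 to 94334392, ranked 73.7 and 74.2 by fold enrichment and 93.7 and 93.6 by −log10 q. The peak over the canonical start, at 94352671 to 94353066, was weak, with a fold enrichment of 3.20 and rank 2.95 in siControl and of 3.32 and rank 4.54 in siAATF. Its −log10 q was 3.46 and 4.68, at ranks 21.6 and 31.3. The high values of KIF11 thus came from its upstream starts.

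The other mitotic kinesins with a peak covered the range between. KIF18B, which acts on astral microtubules, ranked 74.4 in siControl and 91.1 in siAATF. KIF14, a motor of cytokinesis, ranked 55.4 and 61.6. KIF15, which can stand in for KIF11 in spindle assembly, ranked 36.7 and 37.4 and stayed under a −log10 q of 5 in both lists (4.55 and 4.91). KIF20A, which brings the chromosomal passenger complex to the midzone, had the lowest strongest promoter peak of the mitotic genes by fold enrichment, with a fold enrichment of 3.39 in siControl (rank 5.21, −log10 q 1.45) and 4.26 in siAATF (rank 25.0, −log10 q 3.21). The KIF20A peak also covered a start of BRD8, on the other strand.

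**Figure D1:**
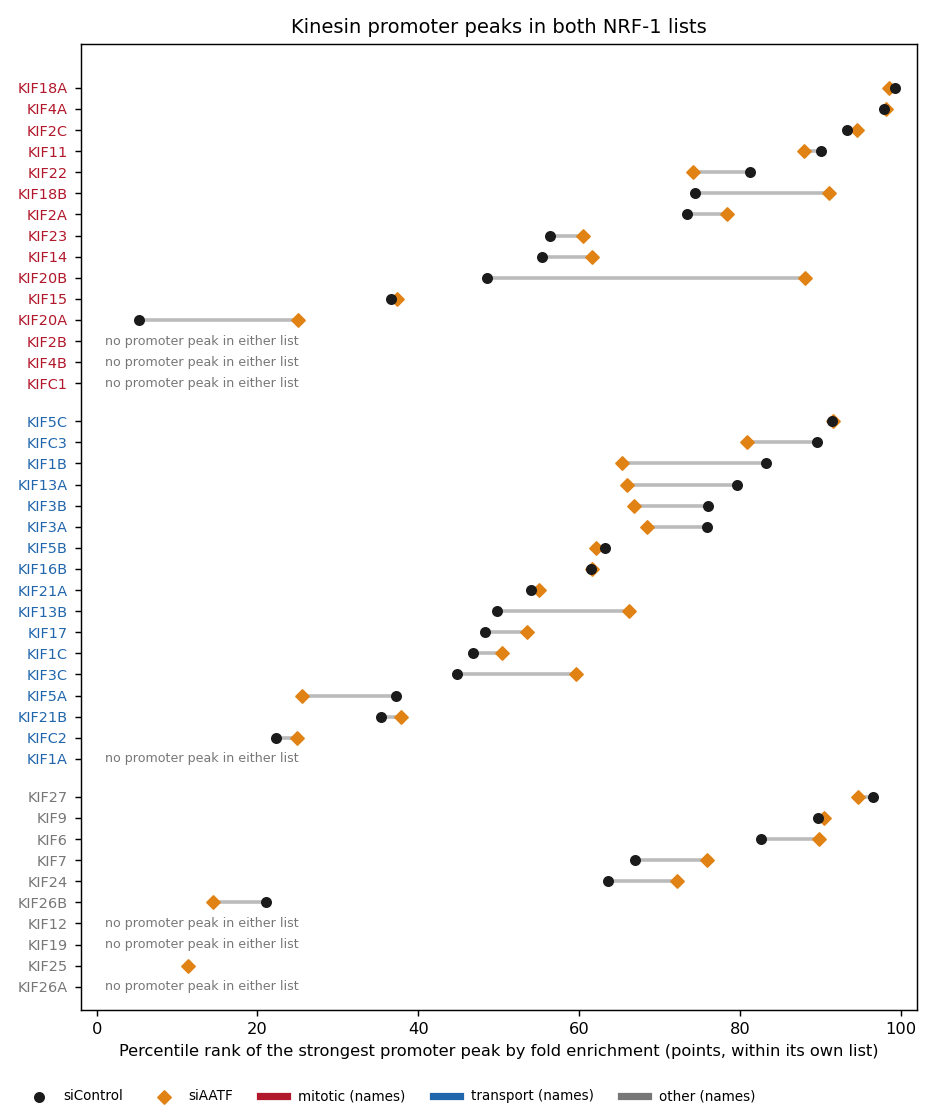
Percentile rank (points, by fold enrichment within its own list) of the strongest promoter peak of each kinesin gene, with siControl as circles, siAATF as diamonds, names coloured by class and no error drawn because there was 1 list per condition. KIF18A and KIF4A sit above 97 in both lists, KIF20B stands at 48.6 and 88.1, and KIF25 has a siAATF peak only.

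Transport kinesins had a promoter peak in 16 of 17 cases in each list (94.1%, 71.3 to 99.9), beside 61.1% and 60.7% of all coding genes. The 3 highest siControl ranks were those of KIF5C, KIFC3 and KIF1B. KIF5C, a neuronal heavy chain of conventional kinesin, had a peak at 149632480 to 149633174 on chromosome 2 with a fold enrichment of 9.0 in siControl and 8.50 in siAATF, at ranks 91.4 and 91.6, and −log10 q of 25.9 and 27.2. Its relatives differed, with KIF5B, the heavy chain used in most cell types, at 63.2 and 62.1 and the neuronal KIF5A at 37.3 and 25.6. By −log10 q the order of these 3 genes changed, since KIF5B ranked 81.9, KIF5C 72.9 and KIF5A 32.0 in siControl. KIFC3, a motor directed to minus ends, had fold enrichments of 8.81 and 7.63 (ranks 89.6 and 80.9) and −log10 q of 48.0 and 35.3. KIF1B, a carrier of mitochondria and synaptic vesicle precursors, ranked 83.3 in siControl and 65.3 in siAATF, with fold enrichments of 8.24 and 6.54 and −log10 q of 27.2 and 19.7.

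Among the kinesin-2 genes, KIF3A and KIF3B lay close together by fold enrichment. Their products pair in the motor of intraflagellar transport, and they ranked 75.9 and 76.0 in siControl and 68.4 and 66.9 in siAATF. By −log10 q they were apart in siControl, with 91.7 for KIF3A, which held a core, and 56.8 for KIF3B, which did not. Their siControl peaks also differed in width, 1128 bp and 641 bp. KIF3C ranked 44.8 and 59.7, and the homodimeric KIF17 ranked 48.3 and 53.6. Among the kinesin-3 genes, KIF13A ranked 79.7 and 65.9, KIF16B, a motor of early endosomes, 61.5 and 61.6, KIF13B 49.7 and 66.2 and KIF1C 46.7 and 50.4. KIF16B ranked 86.1 by −log10 q in siControl without a core. KIF21A and KIF21B, which restrain microtubule growth, ranked 54.0 and 35.4 in siControl and 55.0 and 37.9 in siAATF. KIFC2 had the widest kinesin promoter peak, 1811 bp in siControl, and the lowest fold enrichment among the strongest peaks of the transport group (4.23, rank 22.4), with a −log10 q of 42.1 (rank 82.1).

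Other kinesins had a promoter peak in 6 of 10 cases in siControl (60%, 26.2 to 87.8), near the 61.1% of all coding genes. In siAATF the count was 7 of 10 (70%, 34.8 to 93.3), beside 60.7% of all coding genes. KIF27, related to the Hedgehog regulator KIF7, led with fold enrichments of 9.68 in siControl and 8.88 in siAATF, at ranks 96.5 and 94.7 (chromosome 9, 86535919 to 86536727). Its −log10 q was 50.1 and 47.5. KIF9, a kinesin of sperm flagella, had fold enrichments of 8.82 and 8.40 (ranks 89.7 and 90.5) and −log10 q of 31.6 and 26.1, and its peak covered a start of KLHL18. KIF6, with the exact core, ranked 82.6 and 89.9 with fold enrichments of 8.18 and 8.34. Its −log10 q of 64.8 and 64.9 ranked 90.8 and 93.8. KIF7 itself ranked 66.9 and 75.9, KIF24, a kinesin of centrioles, 63.6 and 72.2, and KIF26B 21.0 and 14.4.

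The remaining 7 kinesin genes had no promoter peak in either list. They were KIFC1, KIF2B and KIF4B of the mitotic group, KIF1A of the transport group, and KIF12, KIF19 and KIF26A. The nearest siControl peak to a coding start was 4.31 kb away for KIFC1, 8.71 kb for KIF12, 12.8 kb for KIF1A, 72.3 kb for KIF4B, 75.7 kb for KIF19, 215 kb for KIF26A and 994 kb for KIF2B. The peaks nearest KIF1A and KIF19 were weak (−log10 q of 1.10 and 1.18). In siAATF the nearest peaks to these 2 genes were 134 kb and 112 kb away, while the other distances were similar. KIF4B is an intronless copy of KIF4A, and the latter ranked near the top of the list. KIF1A, a neuronal carrier of synaptic vesicle precursors, had a promoter of 76.6% GC over 1001 bp, above the median of the transport genes with a peak. KIF25, the eighth gene without a siControl peak, had a weak peak in siAATF alone, at 168400700 to 168401061 on chromosome 6 (fold enrichment 3.68, rank 11.3, −log10 q 1.93). Its midpoint was 1108 bp from the nearest coding start, so only part of it lay in the promoter window. With windows of 500 bp or canonical starts alone, the siAATF share of kinesin genes was 81.0%.

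KIFC1, a minus-end motor that clusters extra centrosomes, lay in a stretch of chromosome 6 where few coding genes had a promoter peak, although 10 peaks were called there in each list. Of 32 other coding genes with a start within 500 kb of its own, 5 had a promoter peak in each list (15.6%), beside 56.3% in siControl and 56.1% in siAATF for the rest of the chromosome. Peaks were also called on 5 alternative haplotype contigs of chromosome 6 in each list, 16 in siControl and 18 in siAATF. Their part in the missing KIFC1 peak was not tested. For KIF19 the same count was 5 of 16 genes, for KIF1A 11 of 18 and for KIF26A 5 of 10, in both lists.

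Mitotic and transport kinesins were compared side by side, without a test, since genes are not replicates. The median rank of the strongest promoter peak was 73.9 for 12 mitotic genes (5.21 to 99.2) and 57.8 for 16 transport genes (22.4 to 91.4) in siControl. All coding genes with a promoter peak had a median of 63.4. In siAATF the medians were 83.2, 61.8 and 64.4, respectively. The ranges of the classes overlapped over nearly their whole extent. Ranked by −log10 q, the same peaks had nearly equal medians in siControl, 66.3 and 65.8 beside 65.0 for all coding genes, and in siAATF they had 73.0 and 65.4 beside 66.1. With canonical starts alone, under which KIF11 is represented by its weak peak, the mitotic medians were 64.9 and 76.3, while those of transport kinesins did not move.

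The promoters of the classes differed in base composition and in elements other than the NRF-1 core. Over 1001 bp around the canonical start, genes with a siControl peak had a median GC content of 57.7% in the mitotic and 69.8% in the transport group. The ratio of observed to expected CpG was similar, with medians of 0.793 and 0.834, beside 0.797 for all coding genes with a peak and 0.328 for those without one. A pair of elements known from cell cycle promoters, TTTGAA (the CHR) and CCAAT, were searched on both strands from 250 bp before to 50 bp after the canonical start. TTTGAA was present in 10 of 15 mitotic promoters (66.7%), 1 of 17 transport promoters (5.88%) and 11.5% of all coding promoters. CCAAT was present in 11 of 15 (73.3%), 5 of 17 (29.4%) and 35.9%. The NRF-1 core with up to 1 mismatch was in 2 of 15 (13.3%), 3 of 17 (17.6%) and 10.5%. The arm GCGCA, which an exact core also contains, was in 73.3%, 76.5% and 50.2%. A match of this kind is a description of the sequence only.

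**Figure D2:**
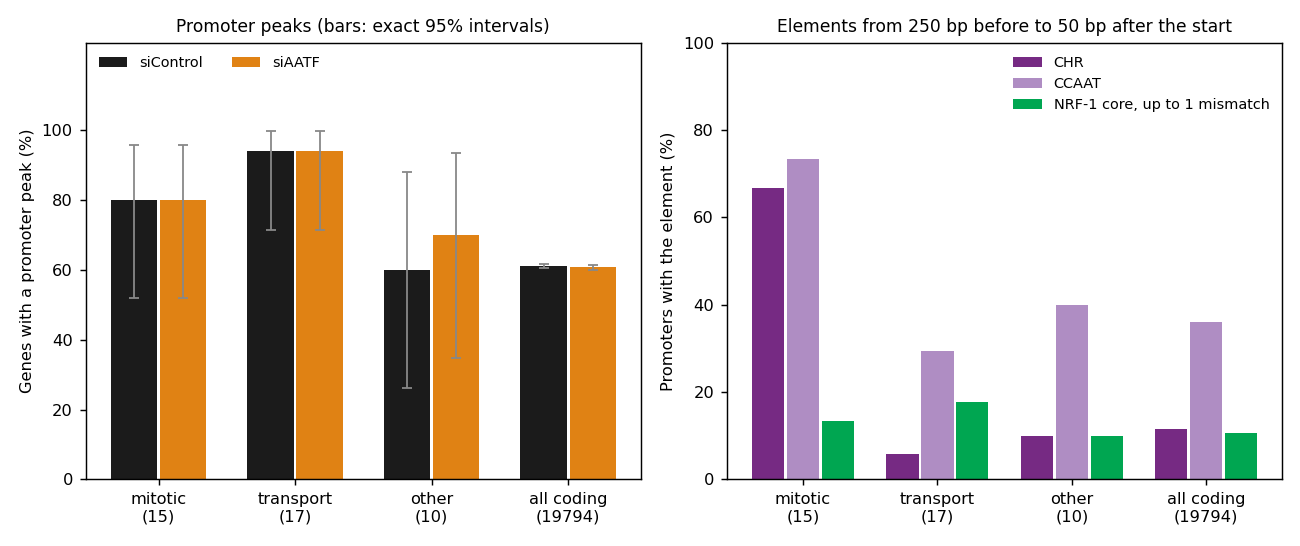
Left, share of genes with a promoter peak (%) by kinesin class and for all coding genes, in siControl and siAATF, with exact 95% intervals that cover counting error only. Right, share of promoters (%) with TTTGAA (CHR), CCAAT or the NRF-1 core with up to 1 mismatch, where the CHR stands at 66.7% in mitotic and 5.88% in transport promoters.

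Presence of the CHR did not go together with presence of a peak. Of the 10 mitotic promoters with TTTGAA, 8 had a peak in each list, and of the 5 without it 4 had one. The bases directly upstream of the canonical start are shown for the mitotic genes with the 2 highest ranks (KIF18A and KIF4A), the largest change between lists (KIF20B) and the weak canonical peak (KIF11), with every arm, CHR and CCAAT, on either strand, in capitals. They are chr11:28129704-28129794 on the minus strand, chrX:69509804-69509953, chr10:91461197-91461346 and chr10:94352737-94352886 on the plus strand, and end 1 base before the start.
KIF18A: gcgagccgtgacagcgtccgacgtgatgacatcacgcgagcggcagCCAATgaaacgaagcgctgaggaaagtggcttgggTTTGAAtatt
KIF4A: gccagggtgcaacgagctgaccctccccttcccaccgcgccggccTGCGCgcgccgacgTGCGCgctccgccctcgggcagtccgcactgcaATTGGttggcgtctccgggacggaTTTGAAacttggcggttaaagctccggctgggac
KIF20B: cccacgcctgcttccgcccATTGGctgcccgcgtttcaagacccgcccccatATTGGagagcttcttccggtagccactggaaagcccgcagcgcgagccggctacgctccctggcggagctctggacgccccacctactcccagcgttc
KIF11: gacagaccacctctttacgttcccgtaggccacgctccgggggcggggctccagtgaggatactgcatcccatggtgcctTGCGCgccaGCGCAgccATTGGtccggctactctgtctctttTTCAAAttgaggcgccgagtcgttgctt

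In KIF18A a CCAAT began at −45 bp and a CHR at −10 bp from the start. The 91 bp between this start and that of METTL15 held no arm. An arm was present in the wider window from 250 bp before to 50 bp after the KIF18A start, and the siControl peak held 2. KIF4A had the arm at −105 and −91 bp, CCAAT at −58 bp and the CHR at −34 bp. KIF11 had a similar order, with the arm at −70 and −61 bp, CCAAT at −53 bp and the CHR at −28 bp. Its peak there ranked only 2.95 in siControl and 4.54 in siAATF by fold enrichment, and 21.6 and 31.3 by −log10 q. KIF20B had CCAAT alone in these bases, at −131 and −98 bp. The wider window from 250 bp before to 50 bp after its start also held a CHR and an arm. Its siControl peak held 3 arms.

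The core occurred in kinesin promoter peaks at a share near that in all peaks at coding promoters. It was present, with up to 1 mismatch, in 8 of 38 kinesin promoter peaks in siControl (21.1%) and 8 of 41 in siAATF (19.5%), beside 21.5% of all peaks at coding promoters in both lists. The exact core was in 1 peak of each list, at KIF6 (2.63% in siControl and 2.44% in siAATF). Over all peaks at coding promoters these shares were 3.48% and 3.49%. By class, the siControl counts were 4 of 14 mitotic, 3 of 17 transport and 1 of 7 other peaks. Within 100 bp of the peak midpoint the core lay in 4 of the 14 mitotic and 0 of the 17 transport peaks. The transport cores were 161 to 359 bp from the midpoint. The share with a core within 100 bp was 13.2% for all kinesin promoter peaks, beside 15.3% of all peaks at coding promoters. The KIF2A core stood at the 100 bp limit, and the KIF11 core lay in the peak shared with IDE.

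Peaks with the core differed from the others in significance more than in fold enrichment. In siControl the median −log10 q was 66.0 for the 8 kinesin peaks with the core and 13.7 for the 30 without it, and the median fold enrichment was 7.52 and 6.40. All peaks at coding promoters showed a like pattern, with a median −log10 q of 65.5 against 11.1 and a median fold enrichment of 7.94 against 6.01. The peaks with the core were also wider, with a median of 1143 bp at kinesin genes, and a wider peak has more bases in which a core can occur. The strongest promoter peak of a kinesin gene held 0 to 12 copies of the arm GCGCA, with a median of 3.65 per kb, beside 3.80 per kb for all coding genes.

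**Figure D3:**
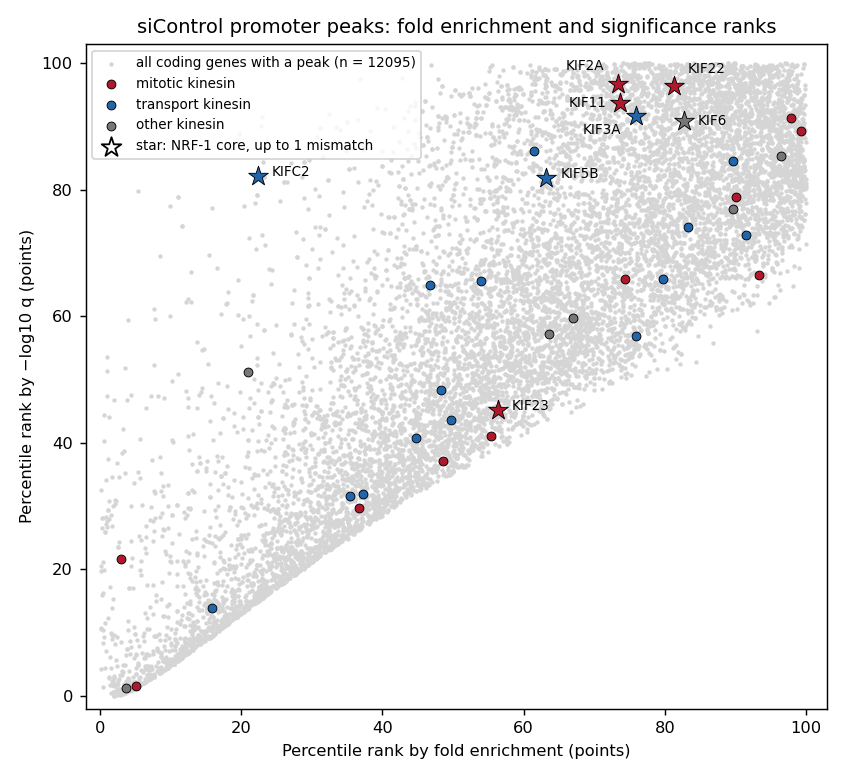
Percentile rank by fold enrichment (horizontal, points) against percentile rank by −log10 q (vertical, points) for siControl promoter peaks. Grey points are the strongest peaks of 12095 coding genes, coloured points the 38 promoter peaks of kinesin genes, and stars those with an NRF-1 core, which stand above 80 on the vertical axis except for KIF23 at 45.1.

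The peaks were centred near the start. The strongest siControl peak spanned the canonical start for 33 of 34 kinesin genes, all but KIF11, and its midpoint was within 200 bp of that start for 28. The median distance of the midpoint was 87 bp. KIF5C had no transcript tagged as canonical, and its most upstream coding start was used. For 8 kinesin genes the peak also covered a start of another coding gene on the opposite strand. Beside KIF18A, KIF4A, KIF20A and KIF9, these were KIF15 with KIAA1143, KIF24 with NUDT2, KIF1C with INCA1 and KIFC2 with TMEM276 and a gene without a symbol. Which gene of such a pair a peak belongs to cannot be told apart from these lists. Peak positions and shared starts were not counted over all coding genes, so they are not shown to be particular to kinesins.

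**Figure D4:**
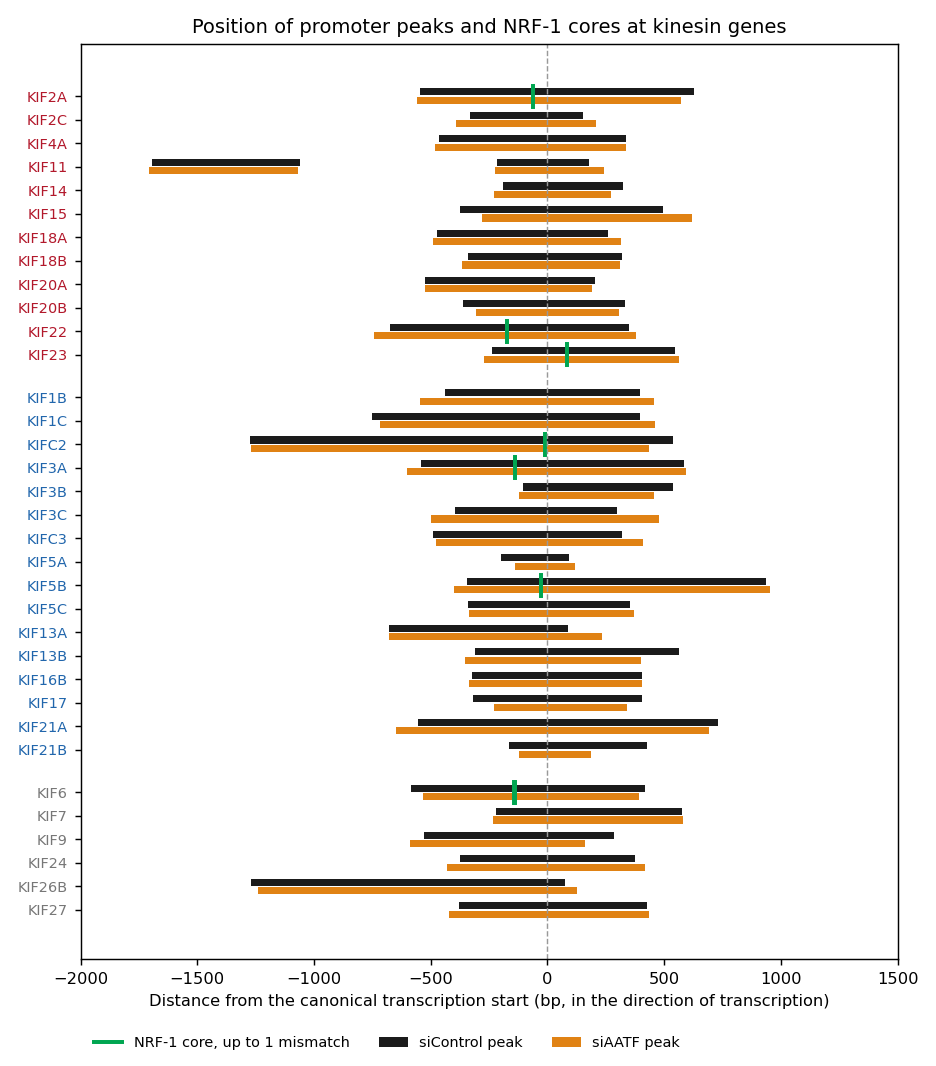
Extent of promoter peaks around the canonical transcription start (bp, in the direction of transcription) of the 34 kinesin genes with a peak in both lists, siControl in black and siAATF in orange. Green ticks mark NRF-1 cores with up to 1 mismatch, peaks and cores outside the drawn range (at KIF11, KIF5A, KIF7, KIF6 and KIFC3) are not shown, and the peaks span the start except for the strongest peak of KIF11, whose siControl midpoint is at −1377 bp.

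The last comparison asked whether NRF-1 peaks at kinesin promoters were kept after AATF depletion. All 38 siControl promoter peaks overlapped a siAATF peak by at least 1 base, and 38 of 41 siAATF promoter peaks overlapped a siControl peak (92.7%). Of all peaks at coding promoters, 96.1% in siControl and 96.5% in siAATF overlapped a peak of the other list. The 3 without a counterpart were weak. They were the KIF25 peak, a peak at a second start of KIF6 (rank 30.6, −log10 q 3.66) and one at a second start of KIFC3 (rank 17.2, −log10 q 2.80). In kinesin gene bodies outside these promoters, 9 of 10 siControl peaks and 9 of 11 siAATF peaks overlapped a peak of the other list, beside 76.3% and 70.9% of such peaks over all coding genes.

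Changes in rank from siControl to siAATF were small for most kinesin genes. For the 34 genes with a peak in both lists the median change was 0.902 points, with 22 genes higher and 12 lower, and the median size of a change was 5.77 points. All 11774 coding genes with a peak in both lists had a median change of 0.156 points, 48.9% lower, and a median size of 5.12 points. A rise of more than 20 points was seen for 1 kinesin gene, KIF20B, beside 3.65% of coding genes, and a fall of more than 20 points for 0 kinesin genes, beside 2.9%. KIF20B, a motor of the late steps of cytokinesis, changed by 39.6 points, from a fold enrichment of 5.72 (rank 48.6, −log10 q 6.06) to 8.18 (rank 88.1, −log10 q 15.3). The peak stayed at the same place, 91460987 to 91461678 on chromosome 10 in siControl and 91461041 to 91461653 in siAATF. Just within the limit were KIF20A, which changed by 19.8 points, and KIF1B, which changed by −18.0 points.

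By class, 9 of 12 mitotic kinesins ranked higher in siAATF, with a median change of 2.68 points, and 9 of 16 transport kinesins, with a median change of 0.117 points, beside 51.1% of all coding genes. By −log10 q, 10 of 12 mitotic kinesins ranked higher (median 3.46 points) and 6 of 16 transport kinesins (median −0.678 points), beside 55.5% of all coding genes with a median of 0.467 points. KIF20B, KIF20A, KIF18B and KIF23 were the mitotic genes with changes of over 9 points by −log10 q (26.1, 18.6, 9.56 and 9.07). KIF22 and KIF18A were the mitotic genes with a lower rank by this measure (−2.05 and −0.474). With 1 peak list per condition, a difference between libraries and an effect of AATF depletion cannot be told apart.

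Genes whose products work with kinesins were read in the same way, from lists that hold no kinesin gene of the rule. The shares of all coding genes with a promoter peak were 61.1% in siControl and 60.7% in siAATF. Of 14 genes for light chains, adaptors and other partners of transport motors, all carried a peak at the promoter in siControl and 13 in siAATF, where KLC3, a kinesin light chain, had none. KIFAP3, the non-motor subunit that joins KIF3A and KIF3B, had the highest siControl rank of these, 97.2, and 94.4 in siAATF. Of 18 mitotic partners, 17 carried a peak in siControl and all 18 in siAATF. The gene that differed was CDCA8, a subunit of the chromosomal passenger complex, whose siAATF peak ranked 0.184. CENPE, a kinetochore kinesin whose symbol lies outside the rule, ranked 53.7 and 34.7. ECT2, which activates RhoA in cytokinesis, ranked 68.4 and 32.8, and INCENP 19.1 and 41.9. Of the 17 mitotic partners with a peak in both lists, 11 ranked higher in siAATF and 6 lower, with a median change of 1.53 points. Of all coding genes, 51.1% ranked higher, with a median change of 0.156 points. Of 15 selected genes of cytoplasmic dynein and dynactin, the motor directed to minus ends, all had a peak in siControl and 14 in siAATF. The median ranks of those with a peak were 84.3 and 87.0. The list does not hold every subunit. The gene without a siAATF peak was DCTN3. The peak counted for DCTN2, a dynactin subunit, was the second promoter peak of KIF5A (rank 16.0 in siControl and 22.8 in siAATF), so the dynein count includes a peak shared with a kinesin gene. The kinesin medians over 34 and 35 genes were 65.3 and 66.2.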

How the data were processed

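Peak lists of NRF-1 ChIP-seq in U251 cells were analysed, 1 for siControl and 1 for siAATF. According to the study's methods, alignment to hg19 used Bowtie2 and peak calling used MACS2 in an ATAC-seq pipeline at its defaults. The fold enrichment, a ratio, the −log10 p and −log10 q, and the display score of each peak were deposited by the authors, with start and end in bp. The −log10 p and the score were not used further. Weak peaks were kept, down to a −log10 q of 1.03 in siControl and 1.02 in siAATF, and depth was unknown. Whether the duplicates were pooled was not given in the sources used here.

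Promoters came from GENCODE release 44 lifted to GRCh37 (chromosomes 1 to 22, X and Y), and sequence from the GRCh37 primary assembly. Python 3.11.15, numpy 2.4.6, scipy 1.17.1, pandas 2.3.3 and pysam 0.24.0 were used. The scripts were tested on simulated data. Intervals of shares were exact Clopper-Pearson 95% intervals. Those of median ranks and rank changes were 95% intervals from the ordered values of the genes. The kinesin genes, the classes, the partner lists and the tests were chosen with earlier results of these data known. Every kinesin gene was named, with full values for the 3 highest of each class, single-list peaks, changes of over 20 points, cores and genes without a peak. Alternatives were thresholds, promoter windows, canonical starts, rankings, overlap rules, core rules and class membership.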

Additional observations from a re-analysis of the deposited data

How the results depend on the processing

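No paired analysis was possible because each condition had only 1 peak list. Of 60 recomputed values over 15 results, 55 stayed within the counting interval of the value reported and 5 moved. Both lists were also restricted to peaks with −log10 q ≥ 5, so that ranks were taken among stronger peaks. Leaving out weak peaks also shifts the ranks of the peaks that stay. The median rank of transport kinesins was then 44.5 in siControl and 45.7 in siAATF. The median of all coding genes under this limit is not given, so a shift particular to transport kinesins is not shown. That of mitotic kinesins was 67.3 and 82.1, within the interval. Under this limit 100% of the siAATF promoter peaks of kinesin genes were shared. With the exact core alone, 2.63% of siControl and 2.44% of siAATF promoter peaks held it. Promoter shares did not move with windows of 500 bp or 2 kb or with canonical starts beyond their intervals. Ranks from canonical starts, and the mitotic share without KIFC1 (85.7% in each list), were alternatives chosen after seeing the data. Depth was unknown, which limits what a peak in 1 list only can show.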

Other observations

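Peaks in kinesin gene bodies away from the promoters of those genes numbered 10 in 7 genes in siControl and 11 in 8 genes in siAATF. Of these peaks, 2 in each list stood at the promoter of another coding gene, MAZ beside KIF22 and TMEM42 within KIF15. The MAZ peak on chromosome 16, at 29816647 to 29818002 in siControl, ranked 47.3 in siControl and 51.5 in siAATF by fold enrichment, with −log10 q of 46.4 and 48.9. Away from annotated coding promoters, the strongest was in KIFC3, at 57843855 to 57844607 on chromosome 16 in siControl, with ranks of 69.5 and 72.1. KIF13B held a peak at 29053038 to 29053504 on chromosome 8 with ranks of 69.0 and 67.5. A peak in KIF26B, at 245397748 to 245398391 on chromosome 1, ranked 59.8 in siControl and 30.9 in siAATF.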
